A study of Mus musculus with 18 samples.

Results

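*Clec7a* encodes dectin-1, a receptor for fungal and other beta-glucans that belongs to the C-type lectins of myeloid cells, and it is described here with *Card9*, which encodes the adaptor below it, and with 6 more myeloid C-type lectin genes, *Clec4a1*, *Clec4a2*, *Clec4a3*, *Clec5a*, *Clec12a* and *Clec2d*. These 8 genes of the 55536 in the count table were chosen by symbol, with earlier results of these data known, and the level of *Clec7a* with and without *Tyrobp* was part of the choice. The comparisons that test *Tyrobp* deletion are therefore given as descriptions for these genes, without p-values. The counts are RNA sequencing reads of striatal cells bound by magnetic beads against CD11b, which is carried by microglia and other myeloid cells, from adult mice of the C57BL/6 strain by the labels and of a C57Bl6/J background by the methods. The groups were 5 WT samples, 3 *Tyrobp*-/- samples, 5 Q175 samples and 5 Q175;*Tyrobp*-/- samples. *Tyrobp*-/- is a constitutive knockout of the adaptor TYROBP (DAP12), so every cell of these animals lacks it. Q175 is a heterozygous knock-in model of Huntington's disease with a lengthened CAG repeat in its own *Htt* gene. WT samples were 4 males and 1 female, *Tyrobp*-/- samples 1 male and 2 females, Q175 samples 1 male and 4 females, and Q175;*Tyrobp*-/- samples 3 males and 2 females. Each sample was taken from 1 striatum by the methods and from 2 by the labels, and no batch is named.

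Myeloid C-type lectin receptors bind sugars, crystals or proteins on microbes, dying cells and other immune cells. Dectin-1 carries an activating motif in its own tail, recruits the kinase SYK and passes the signal to the complex of CARD9, BCL10 and MALT1, which activates NF-kB. CLEC5A has no such motif and signals through TYROBP, while the product of *Clec4a2* (DCIR) and that of *Clec12a* (MICL) carry inhibitory motifs. In mouse brain, *Clec7a* is widely used as a marker of the disease-associated state of microglia.

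All of the members but *Card9* lie on chromosome 6 of GRCm38, in 3 places. *Clec4a1* (chr6:122921848-122934619), *Clec4a3* (chr6:122952515-122969875) and *Clec4a2* (chr6:123106428-123143999) are neighbours on the plus strand, with 17.9 kb between the first pair and 137 kb between the second. *Clec2d* (chr6:129180615-129186534) and *Clec12a* (chr6:129342691-129365303) on the plus strand and *Clec7a* (chr6:129461591-129472779) on the minus strand form another group, with 96.3 kb from *Clec12a* to *Clec7a*. *Clec5a* (chr6:40574894-40585821) stands alone, and *Card9* is at chr2:26352176-26360918. The annotation (GENCODE M21) classes *Clec7a* as a polymorphic pseudogene and the other members as protein coding. *Card9* overlaps the antisense transcript *Gm13562*, which had at most 23 counts in a sample, and the libraries carry no strand. The *Clec4a* genes are related in sequence, so reads could be shared between them.

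The stretches of 250 bases before the transcription start (RefSeq, GRCm38.p6) are shown for *Clec7a* and for *Clec5a*. Among samples of 1 genotype, *Clec5a* was the member whose level varied most like that of *Clec7a*. Capitals mark the letters GAGGAA, the core that the myeloid factor PU.1 binds, or their complement TTCCTC. The *Clec7a* stretch lies at chr6:129472780-129473029 and that of *Clec5a* at chr6:40585806-40586055, both on the minus strand.
Clec7a: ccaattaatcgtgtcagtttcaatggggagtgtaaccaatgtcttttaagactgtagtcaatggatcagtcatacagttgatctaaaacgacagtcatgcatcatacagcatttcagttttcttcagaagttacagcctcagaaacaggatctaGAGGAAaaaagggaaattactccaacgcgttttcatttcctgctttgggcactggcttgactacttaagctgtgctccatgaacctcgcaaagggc
Clec5a: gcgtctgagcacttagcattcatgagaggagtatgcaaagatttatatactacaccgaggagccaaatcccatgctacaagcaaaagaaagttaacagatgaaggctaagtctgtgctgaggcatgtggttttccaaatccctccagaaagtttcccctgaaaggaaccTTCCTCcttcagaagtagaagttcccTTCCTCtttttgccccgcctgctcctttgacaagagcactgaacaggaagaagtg
The match in *Clec7a* begins 96 bases before the start, and the 2 matches in *Clec5a* begin 81 and 55 bases before it. With both strands searched and 1 stretch per gene, 4 of the 8 members held the core (*Clec7a*, *Clec4a1*, *Clec5a* and *Clec12a*), against 23.1% of 27025 genes. The AP-1 site TGANTCA was in 1 of the 8, *Clec12a*, against 6.87% of genes, and these letters do not overlap the core.

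Total counts per sample were between 11260410 and 29771983, and levels are given as normalised counts, which are counts scaled by edgeR's TMM factors to the mean library. *Tyrobp* was at 3649.8 to 8130.2 normalised counts in WT and 3976 to 7149 in Q175. It was at 314 to 409.9 in *Tyrobp*-/- and 176 to 279.7 in Q175;*Tyrobp*-/-, so every sample matched the *Tyrobp* part of its label. These levels cannot check the Q175 part or the sex. All 15 microglia markers, such as *Cx3cr1*, *P2ry12* and *Tmem119*, had counts in every sample. Oligodendrocyte markers were present as well (summed level 31417 to 126644), while markers of NK, T and B cells summed to at most 69.4. In 5 libraries the microglia markers were low for their genotype: WT 1 and 6, *Tyrobp*-/- 20, Q175 4 and Q175;*Tyrobp*-/- 5. Their log2 level deviated from the genotype mean by -0.77 to -0.33 in these libraries and by -0.14 to 0.49 in the other 13. Their level (geometric mean) was 10180.3 to 16672 in these libraries and 15724 to 28920.5 in the other 13. Since the libraries are bulk samples, fewer cells of a type and less RNA per cell cannot be told apart.

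**Figure D1:**
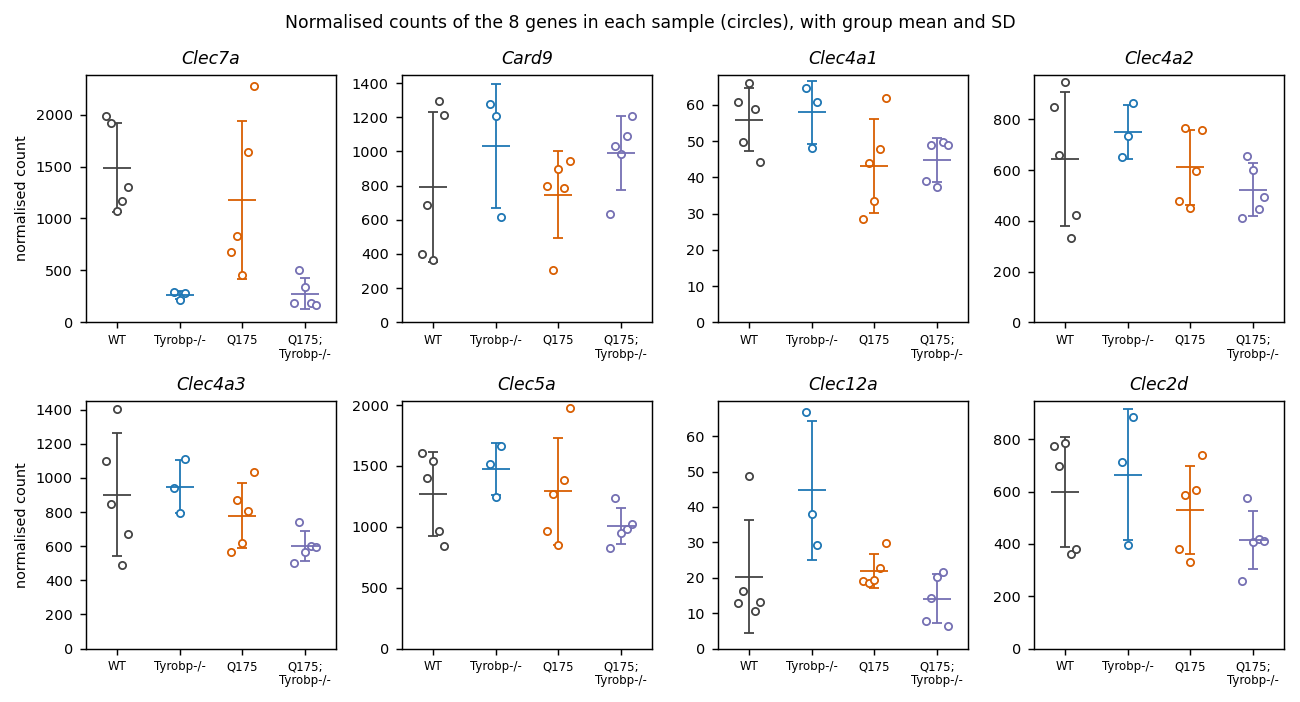
Normalised counts of the 8 genes (vertical axes, each from 0) in the 4 genotypes, with 1 circle per sample and a bar for the mean with its SD. *Clec7a* was at 219 to 289.6 and 163 to 506 in the 2 groups without *Tyrobp*, while the groups of the other 7 genes overlap in most comparisons.

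The level of *Clec7a* was about 5.64-fold lower in *Tyrobp*-/- than in WT microglia and about 4.26-fold lower in Q175;*Tyrobp*-/- than in Q175 microglia, by the ratio of means. The 5 WT samples (replicates 1, 2, 6, 7 and 8, in this order here and for the genes that follow) had 1986, 1919, 1071, 1167 and 1307 normalised counts. The 3 *Tyrobp*-/- samples (replicates 15, 19 and 20) had 289.6, 219 and 284. All 3 *Tyrobp*-/- samples were below all 5 WT samples. The 5 Q175 samples (3, 4, 9, 14 and 17) had 675, 835, 457, 1636 and 2278. The 5 Q175;*Tyrobp*-/- samples (5, 11, 12, 13 and 16) had 182, 506, 344, 185 and 163. These groups met in 1 of their 25 pairs, where Q175 replicate 9 was below Q175;*Tyrobp*-/- replicate 11. Averaged by genotype, WT had 1490.0 ± 431 (SD, n = 5), *Tyrobp*-/- had 264 ± 39.3 (SD, n = 3), Q175 had 1176 ± 759.9 (SD, n = 5) and Q175;*Tyrobp*-/- had 276 ± 148 (SD, n = 5).

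In order, the groups ran WT, Q175, Q175;*Tyrobp*-/- and *Tyrobp*-/-. WT and Q175 did not differ beyond their spread, nor did the pair without *Tyrobp*. The log2 fold change, with its SE, was -2.50 ± 0.28 for *Tyrobp*-/- against WT and -2.10 ± 0.44 for Q175;*Tyrobp*-/- against Q175. Among all genes tested these were the 61st lowest of 18017 and the 91st lowest of 18059. At an FDR of 0.1 (edgeR's quasi-likelihood test, adjusted over all genes), 1 of the 8 members, *Clec7a*, was called in *Tyrobp*-/- against WT, where 0.0222% of all genes were called. None of the 8 was called in Q175;*Tyrobp*-/- against Q175, where 0.0111% were. DESeq2 called *Clec7a* alone in each of them, with 0.932% and 0.227% of genes called. Nothing is read from these counts, because the contrasts entered the choice of the gene. The call in *Tyrobp*-/- against WT was lost with sex as a term and without *Tyrobp*-/- replicate 15 or 19. It was also lost with a score of astrocyte, neuron and oligodendrocyte markers or a score of other myeloid markers as a term. The log2 fold change stayed at -2.35 or lower in each of these fits. The score of other myeloid markers was itself apart between these groups, so it cannot be told from genotype there.

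The spread of *Clec7a* was unequal. Its coefficient of variation was 64.6% in Q175 and 53.6% in Q175;*Tyrobp*-/-, against 28.9% in WT and 14.9% in *Tyrobp*-/- microglia. In Q175, replicates 14 and 17 were above the middle of the WT range, and replicates 3, 4 and 9 were below every WT sample. Sexes are unequal between the groups. The only Q175 male was the lowest Q175 sample, the only *Tyrobp*-/- male was the lowest of its group, and the 3 males in Q175;*Tyrobp*-/- (185 to 506) were above its 2 females (163 and 182). The single WT female (1167) lay within the range of the 4 WT males (1071 to 1986).

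Reads of *Clec7a* per read of *Clec5a* in the same library do not depend on scaling. This ratio was 0.695 to 1.55 in WT and 0.536 to 1.18 in Q175, against 0.171 to 0.191 in *Tyrobp*-/- and 0.159 to 0.410 in Q175;*Tyrobp*-/- samples. Both pairs of groups were apart on it, Q175 and Q175;*Tyrobp*-/- included. *Clec5a* was chosen as the denominator after its values were seen. The level of microglia markers was 13886 to 21975 in WT and 16672 to 28920.5 in *Tyrobp*-/-, and 10180.3 to 24356 in Q175 and 16622 to 23686 in Q175;*Tyrobp*-/- samples, with overlap in each pair. Without the 5 libraries low in microglia markers, the log2 fold change of *Clec7a* was -2.54 in *Tyrobp*-/- against WT and -2.08 in Q175;*Tyrobp*-/- against Q175.

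In Q175 against WT, *Clec7a* had a log2 fold change of -0.36 ± 0.38 (adjusted p = 0.999, edgeR). In Q175;*Tyrobp*-/- against *Tyrobp*-/- it was 0.05 ± 0.37 (adjusted p = 0.968, edgeR). Neither passed the test. The first moved to -1.83 with the score of astrocyte, neuron and oligodendrocyte markers as a term. It moved to -0.76 without Q175 replicate 17 and to -0.18 without Q175 replicate 9. The second changed sign in 6 of 20 alternatives (lowest -0.51, with the score of other myeloid markers). The astrocyte, neuron and oligodendrocyte score was itself apart, at -0.83 to -0.37 in WT and -0.04 to 1.55 in Q175 samples. The other myeloid score was apart between *Tyrobp*-/- and Q175;*Tyrobp*-/- samples. Score and genotype therefore cannot be told apart in either fit. The difference between the effects of *Tyrobp* deletion with and without Q175 was 0.46 ± 0.57 on the log2 scale, which is less than its SE, and edgeR called no member for it, as for 0% of all genes.

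**Figure D2:**
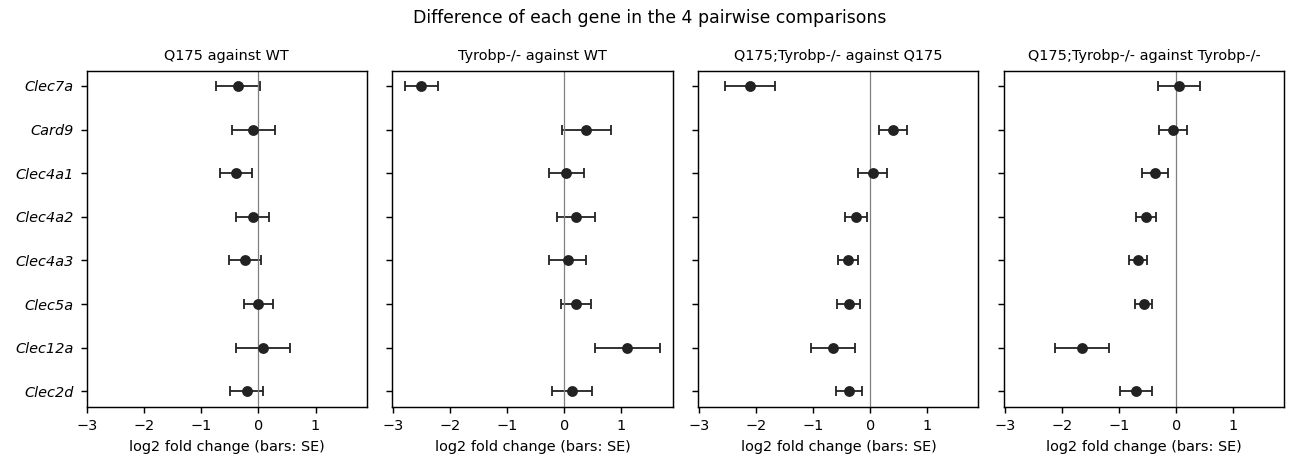
Log2 fold change (horizontal axis, bars for the SE) of each gene in the 4 pairwise comparisons. *Clec7a* is at -2.50 and -2.10 in the panels of *Tyrobp* deletion, and the other 7 genes lie between -0.65 and 1.10 there.

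*Card9*, the adaptor through which dectin-1 reaches NF-kB, did not follow the receptor. Its normalised counts were 402, 687, 364, 1294 and 1212 in WT and 1278, 1206 and 618 in *Tyrobp*-/- samples. They were 799, 305, 900.1, 789 and 944 in Q175 and 632, 1034, 984, 1093 and 1205 in Q175;*Tyrobp*-/- samples. All groups overlapped. The log2 fold changes were 0.38 ± 0.43 in *Tyrobp*-/- against WT and 0.40 ± 0.25 in Q175;*Tyrobp*-/- against Q175, opposite in sign to those of *Clec7a*. Q175 against WT gave -0.09 ± 0.37 (adjusted p = 0.999, edgeR) and Q175;*Tyrobp*-/- against *Tyrobp*-/- gave -0.06 ± 0.24 (adjusted p = 0.942, edgeR).

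*Card9* split the libraries within every genotype instead. It was at 305 to 632 in the 5 libraries low in microglia markers and at 687 to 1294 in the other 13, without overlap. No other member separated these libraries, but how many of all genes do so was not counted. With the mean of each genotype subtracted on the log2 scale, *Card9* deviated by -1.19 to -0.61 in the 5 and by -0.01 to 0.90 in the 13. Within the 13, Pearson's r of *Card9* and the microglia marker level was 0.42 (Spearman's rho 0.48), so a pooled value would rest on the split. Both quantities come from the same libraries and share their scaling.

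*Clec5a*, whose product signals through TYROBP, had overlapping levels with and without *Tyrobp*. Normalised counts in WT were 1605, 1401, 1543, 964 and 844, and in *Tyrobp*-/- 1517, 1246 and 1663. In Q175 they were 965, 1273, 853, 1384 and 1977 and in Q175;*Tyrobp*-/- 827, 1234, 950.2, 981 and 1025. The *Tyrobp*-/- samples lay within or just above the WT range. Q175;*Tyrobp*-/- lay below *Tyrobp*-/- in all 15 pairs. The log2 fold change was 0.20 ± 0.26 in *Tyrobp*-/- against WT, -0.38 ± 0.20 in Q175;*Tyrobp*-/- against Q175 and -0.57 ± 0.15 in Q175;*Tyrobp*-/- against *Tyrobp*-/- (adjusted p = 0.291, edgeR). In Q175 against WT it was 0.00 ± 0.26.

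The 3 *Clec4a* genes differed in level by more than 10-fold per length. Per kb of exon, the WT means were 679 ± 272 normalised counts (SD, n = 5) for *Clec4a3*, 219.7 ± 90.0 for *Clec4a2* and 35.9 ± 5.61 for *Clec4a1*. *Clec4a2*, the inhibitory receptor DCIR, had 848, 661, 946, 334 and 424 normalised counts in WT and 653, 736 and 864 in *Tyrobp*-/- samples. It had 479, 767, 452, 597 and 758 in Q175 and 411, 657, 601, 447 and 495 in Q175;*Tyrobp*-/- samples. WT replicates 7 and 8 were the lowest WT samples, and the ranges of all 4 groups met. *Clec4a3* had 1099, 845, 1406, 488 and 669 in WT, 943, 797 and 1109 in *Tyrobp*-/-, 568, 872, 618, 805 and 1033 in Q175 and 499, 745, 564, 604 and 596 in Q175;*Tyrobp*-/- samples. Every Q175;*Tyrobp*-/- sample was below every *Tyrobp*-/- sample. *Clec4a1* was low, at 28.6 to 66.0 normalised counts over the 18 samples, with group means of 55.9 ± 8.74, 57.9 ± 8.58, 43.1 ± 13.1 and 44.8 ± 6.02 (SD) in the order WT, *Tyrobp*-/-, Q175 and Q175;*Tyrobp*-/-. In *Tyrobp*-/- against WT the log2 fold changes were 0.04 for *Clec4a1*, 0.21 for *Clec4a2* and 0.06 for *Clec4a3*. In Q175;*Tyrobp*-/- against Q175 they were 0.04, -0.25 and -0.39.

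*Clec2d*, which encodes the ligand of an inhibitory receptor of NK cells, had 773, 697, 785, 361 and 382 normalised counts in WT and 714, 395 and 887 in *Tyrobp*-/- samples. In Q175 it had 379.7, 587, 333, 605 and 740.4 and in Q175;*Tyrobp*-/- 259, 577, 407, 418 and 413. All groups overlapped. Its log2 fold changes were 0.14 ± 0.35 in *Tyrobp*-/- against WT, -0.37 ± 0.24 in Q175;*Tyrobp*-/- against Q175 and -0.70 ± 0.29 in Q175;*Tyrobp*-/- against *Tyrobp*-/- (adjusted p = 0.346, edgeR).

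*Clec12a*, an inhibitory receptor best known from monocytes, granulocytes and dendritic cells, was the scarcest member. Its raw counts were 7 to 60 per sample. Normalised counts were 12.7, 16.2, 48.7, 10.7 and 13.1 in WT and 66.8, 37.9 and 29.2 in *Tyrobp*-/- samples. They were 19.1, 18.6, 19.3, 22.7 and 29.8 in Q175 and 7.82, 14.3, 20.3, 21.6 and 6.32 in Q175;*Tyrobp*-/- samples. WT replicate 6 stood above the other 4 WT samples. The log2 fold change was 1.10 ± 0.57 in *Tyrobp*-/- against WT, -0.65 ± 0.39 in Q175;*Tyrobp*-/- against Q175 and -1.65 ± 0.47 in Q175;*Tyrobp*-/- against *Tyrobp*-/- (adjusted p = 0.291, edgeR), with no overlap in the last. Without WT replicate 6 the first was 1.74.

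Markers of monocytes and neutrophils also had their highest ranges in *Tyrobp*-/- samples. The level of 9 monocyte markers was 69.5 to 143 in *Tyrobp*-/-, 20.9 to 89.3 in WT, 33.4 to 54.6 in Q175 and 36.8 to 74.0 in Q175;*Tyrobp*-/- samples (geometric mean of normalised counts plus 1). Their summed level was 1704 to 2576, 1187 to 1886, 1029.6 to 2016 and 741 to 1861 in the same order. The 9 neutrophil markers were at 40.7 to 234, 3.13 to 186, 8.53 to 63.7 and 16.4 to 115, and WT replicate 6 was the highest WT sample of both lists by this mean. With the score of other myeloid markers (border-associated macrophages, monocytes and neutrophils) as a term, the log2 fold change of *Clec12a* was 0.05 in *Tyrobp*-/- against WT and -0.65 in Q175;*Tyrobp*-/- against *Tyrobp*-/-. The score itself was apart in both comparisons, at 0.79 to 1.37 in *Tyrobp*-/-, -1.74 to 0.69 in WT and -0.77 to 0.74 in Q175;*Tyrobp*-/- samples, so score and genotype cannot be told apart in these fits. With the mean of each genotype subtracted, Pearson's r of *Clec12a* and the monocyte level was 0.67 over 18 samples (Spearman's rho 0.63). It was 0.62 without the 2 samples farthest from the median marker level and 0.49 without the 2 farthest in *Clec12a*. This was not particular to *Clec12a*: r with the monocyte level was 0.61 for *Clec4a1* (rho 0.72), 0.54 for *Clec5a* and 0.53 for *Clec2d*. The remaining members were at -0.23 to 0.42. These values are descriptions over libraries that share their scaling, with no p.

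**Figure D3:**
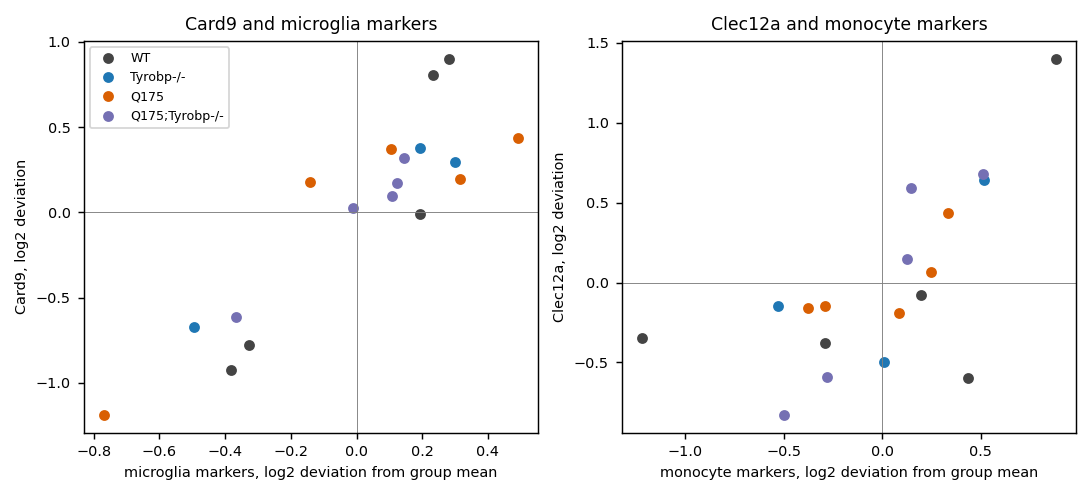
Log2 deviation of each sample from the mean of its genotype, for *Card9* against the microglia markers (left) and for *Clec12a* against the monocyte markers (right), with 1 point per sample. On the left, 5 libraries with *Card9* at -0.61 or below stand apart from the other 13; on the right, Pearson's r is 0.67.

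Per kb of exon, the order of levels was the same at its ends in every genotype and differed in between, in the places of *Clec7a* and *Card9* among others. *Clec4a3* had the highest mean, *Clec4a1* was second to last and *Clec12a* last in all 4 groups. *Clec7a* was 2nd of 8 in WT (565 ± 163 per kb) and in Q175 (446 ± 288), and 6th in *Tyrobp*-/- (100.1 ± 14.9) and in Q175;*Tyrobp*-/- (105 ± 56.1). *Card9* was 4th in WT, 3rd in *Tyrobp*-/-, 5th in Q175 and 2nd in Q175;*Tyrobp*-/-. In WT, the ranges of *Clec4a3*, *Clec7a*, *Clec2d*, *Card9* and *Clec5a* overlapped from each to the next. In *Tyrobp*-/-, *Clec7a* (82.9 to 109.8 per kb) lay apart from *Clec4a2* above it (223 to 295) and from *Clec4a1* below it (31.0 to 41.5).

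In Q175 against WT, none of the 8 members was called (edgeR), with 0% of all genes called. None had an unadjusted p under 0.05, which 6.24% of genes had, and DESeq2 called none of them and 1.28% of genes. The groups overlapped for all 8, and for all but 1.16% of genes. The members' median log2 fold change was -0.15, against -0.02 over all genes, and the extremes were -0.39 for *Clec4a1* and 0.08 for *Clec12a*. In Q175;*Tyrobp*-/- against *Tyrobp*-/-, edgeR called none of 8 (0% of genes), and the smallest adjusted p was 0.291. The unadjusted p was under 0.05 for 5 of 8, all lower (*Clec4a2*, *Clec4a3*, *Clec5a*, *Clec12a* and *Clec2d*), against 8.24% of genes lower. These are not 5 separate results, because *Clec4a2*, *Clec4a3*, *Clec5a* and *Clec2d* varied together within genotypes (r 0.82 to 0.92). Without the libraries low in microglia markers, the log2 fold changes of these 4 were between -0.48 (*Clec4a3*) and -0.30 (*Clec2d*). DESeq2 called *Clec4a3* (adjusted p = 0.0301) and *Clec5a* (adjusted p = 0.0574), with 3.84% of genes called. The groups did not overlap for 3 of 8 members, *Clec4a3*, *Clec5a* and *Clec12a*, against 9.04% of genes. The median was -0.55 for the members and -0.01 for all genes. In *Tyrobp*-/- against WT, 1 of 8 members did not overlap, where 4.5% of genes did not, and in Q175;*Tyrobp*-/- against Q175 all 8 overlapped, where 0.853% of genes did not.

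Members varied together among samples of the same genotype. With the genotype means subtracted, Pearson's r over the 18 samples was 0.82 to 0.92 for the 6 pairs of *Clec4a2*, *Clec4a3*, *Clec5a* and *Clec2d* (Spearman's rho 0.78 to 0.93), although these genes lie in 3 places of the chromosome. Without the 2 samples farthest from the median of either gene it was at least 0.80. In the 13 libraries not low in microglia markers it was 0.79 to 0.93. It was 0.84 to 0.97 in the 10 samples with *Tyrobp* and 0.61 to 0.98 in the 8 without it. The 4 genes were singled out from these same values, so their high r is no test. *Card9* had r below 0 with 6 of the other 7 members, down to -0.69 with *Clec4a2*, and -0.74 in the 13 libraries. Its r with these 7 was -0.83 to 0.02 in the 10 samples with *Tyrobp*. In the 8 without it, r was -0.07 to 0.45, with -0.05 for *Clec4a2*, so the negative values came from the samples with *Tyrobp*. The 28 pairs are given as a description, with no p, since all genes of a library share its scaling.

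**Figure D4:**
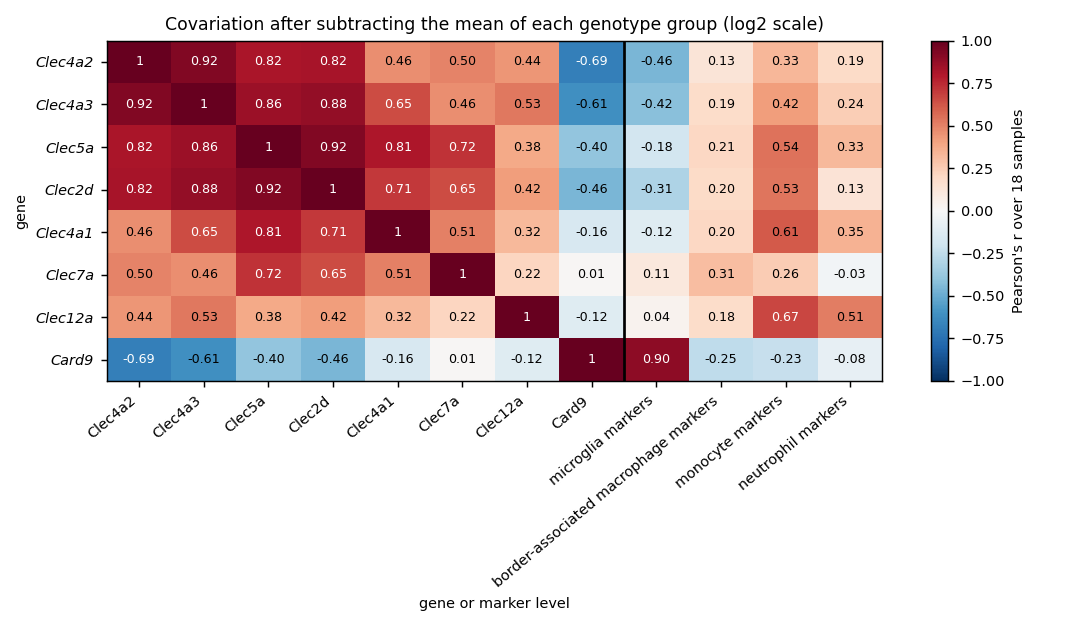
Pearson's r over 18 samples, after subtracting each genotype's mean on the log2 scale, between the members (rows and the 8 columns left of the line) and with the levels of 4 marker lists (right). *Clec4a2*, *Clec4a3*, *Clec5a* and *Clec2d* form a block at 0.82 or more, and the *Card9* row is negative or near 0 against all other members.

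*Clec7a* itself went most closely with *Clec5a* among the members, at r = 0.72 (rho 0.62), which was rank 110 among 12430 genes compared. With *Clec2d* it was 0.65 and with *Card9* 0.01. The 5 genes most like *Clec7a* were *Glipr1* (r = 0.88, rho 0.84), *Samd9l* (r = 0.87, rho 0.76), *Anxa4* (r = 0.87, rho 0.84), *Gpr65* (r = 0.87, rho 0.83) and *Zfp65* (r = 0.83, rho 0.75), over 18 samples. In the 8 samples without *Tyrobp* alone, r was 0.70 to 0.89 for these 5. Among these 5, likeness within a genotype did not come with 1 direction of difference by genotype. Their log2 fold changes ran from -0.71 (*Gpr65*) to 1.54 (*Samd9l*) in *Tyrobp*-/- against WT. In Q175;*Tyrobp*-/- against Q175 they ran from -0.98 (*Gpr65*) to 0.61 (*Samd9l*). Of the genes at ranks 6 to 10, *Lilrb4a* (-1.10 and -1.69), *Ccl4* (-1.52 and -1.89) and *Postn* (-0.97 and -0.99) were lower in both comparisons. *Drg1* was at 0.09 and -0.07, and *Ptprc* at -0.03 and -0.27. *Spp1*, another gene of disease-associated microglia, had r = 0.94 with *Clec7a* in the 10 samples with *Tyrobp* and 0.03 in the 8 without it. Its level was 309 to 1542 in WT and 118 to 3009.5 in Q175, against 8.53 to 12.3 in *Tyrobp*-/- and 3.95 to 69.3 in Q175;*Tyrobp*-/- samples.

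The gene bodies nearest to *Clec7a* are *Clec1a*, 9.59 kb to one side, and *Olr1*, 12.5 kb to the other, both on the same strand. *Clec1a* encodes a fungal melanin receptor and *Olr1* the receptor LOX-1 for oxidised lipoproteins. *Clec1a* had 69.5 to 267 normalised counts in WT, 71.9 to 109 in *Tyrobp*-/-, 81.7 to 135 in Q175 and 39.1 to 201 in Q175;*Tyrobp*-/- samples. *Olr1* had 37.6 to 103, 30.5 to 39.0, 23.7 to 144 and 17.9 to 57.3 in the same order. The groups of both genes overlapped. In *Tyrobp*-/- against WT the log2 fold change was -0.98 ± 0.43 for *Clec1a* (adjusted p = 0.711, edgeR) and -1.10 ± 0.40 for *Olr1* (adjusted p = 0.610, edgeR). In Q175;*Tyrobp*-/- against Q175 it was -0.14 ± 0.35 for *Clec1a* and -0.85 ± 0.47 for *Olr1*, and neither passed. *Gabarapl1*, an autophagy gene 60.4 kb away and the only neighbour within 250 kb at a level like that of *Clec7a*, was at 0.44 ± 0.22 and -0.01 ± 0.30. Apart from *Clec7a* itself, edgeR called no tested gene within 250 kb in any comparison.

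**Figure D5:**
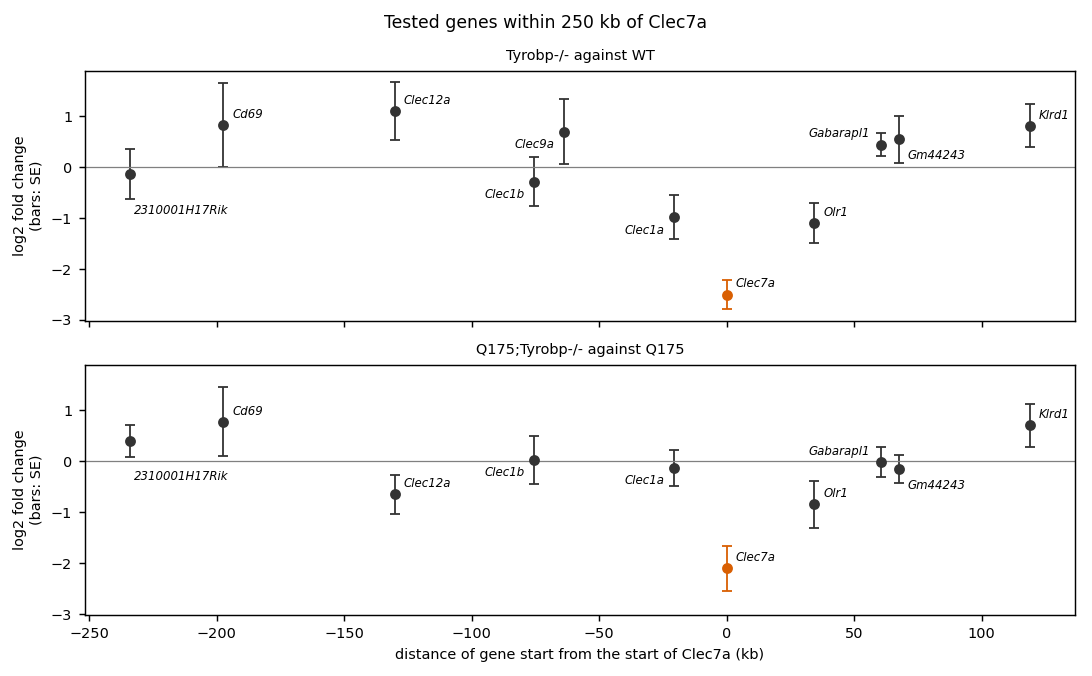
Log2 fold change (vertical axis, bars for the SE) of the tested genes within 250 kb of *Clec7a*, against the distance of their start from that of *Clec7a* in kb, for *Tyrobp*-/- against WT (top) and Q175;*Tyrobp*-/- against Q175 (bottom). *Clec7a* (orange) is at -2.50 and -2.10; *Clec1a* and *Olr1* beside it are at -0.98 and -1.10 in the top panel, where neither passed the test.

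Of 61 further genes with C-type lectin domains, 5 had a mean of at least 2 log2 CPM, and 23 had under 10 counts in every sample. None of the 29 tested was called in *Tyrobp*-/- against WT (unadjusted p under 0.05 for 7, DESeq2 0 called) and none of 27 in Q175;*Tyrobp*-/- against Q175 (2 with an unadjusted p under 0.05, DESeq2 0). Over all genes, 6.82% and 8.01% had an unadjusted p under 0.05 in these comparisons. Their median log2 fold change was 0.70 in *Tyrobp*-/- against WT, against 0.02 over all genes, and -0.14 in Q175;*Tyrobp*-/- against Q175. The mannose receptor genes *Mrc1* and *Mrc2* were at 0.61 ± 0.31 (adjusted p = 0.796) and 1.04 ± 0.45 (adjusted p = 0.703) in the first of these (edgeR). *Clec10a* and *Mgl2*, lectin receptor genes of macrophages and dendritic cells, were at 1.99 ± 0.70 and 2.68 ± 0.88, from low counts, and did not pass. Markers of border-associated macrophages were at 34.2 to 41.8 in *Tyrobp*-/- and 12.7 to 20.99 in WT samples (geometric mean over 10 genes, of which *Mrc1*, *Cd209f* and *Clec4n* belong to the family). Their summed level overlapped, at 5016 to 8462 and 4015 to 11025.

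Downstream of and beside dectin-1, 65 pathway genes were listed, a list that holds *Tyrobp* and *Card9* but not *Clec7a*. Of its other 63 genes, 58 were tested, and edgeR called none in any pairwise comparison (unadjusted p under 0.05 for 3 in *Tyrobp*-/- against WT and 11 in Q175;*Tyrobp*-/- against Q175, where 6.82% and 8.01% of all genes had one). DESeq2 called 2 in *Tyrobp*-/- against WT and 2 in Q175;*Tyrobp*-/- against Q175, which were the chemokine genes *Ccl3* and *Ccl4* in each, and 3 in Q175;*Tyrobp*-/- against *Tyrobp*-/- (*Casp1*, *Cybb* and *Fcer1g*, all lower). DESeq2 called 0.932%, 0.227% and 3.84% of all genes in the same order. *Ccl3* was at 82.7 to 173 normalised counts in *Tyrobp*-/- and 302 to 664 in WT, without overlap, and at 54.7 to 103 in Q175;*Tyrobp*-/- and 129.7 to 625 in Q175, again without overlap. Its log2 fold changes were -1.64 ± 0.35 (edgeR adjusted p = 0.565) and -1.95 ± 0.37 (edgeR adjusted p = 0.335). *Ccl4* was at -1.52 ± 0.44 and -1.89 ± 0.43 (edgeR adjusted p = 0.565 and 0.533). Both went with *Clec7a* among samples of 1 genotype, at r = 0.80 for *Ccl3* and 0.82 for *Ccl4*. Levels of *Syk*, the kinase dectin-1 recruits, differed by 0.05 ± 0.43 and 0.55 ± 0.27 in the comparisons of *Tyrobp* deletion, and those of *Fgr*, a Src family kinase, by -0.99 ± 0.63 and -1.21 ± 0.41, without passing the test. *Fcer1g*, the adaptor gene closest to *Tyrobp* in function, was at 0.19 ± 0.32 and -0.36 ± 0.17. *Tlr2*, which acts with dectin-1 on fungal particles, was at -0.67 ± 0.24 (adjusted p = 0.610) and -0.44 ± 0.17 (adjusted p = 0.533, edgeR).

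The 13 genes of the CARD9 complex and of NF-kB, *Card9* among them, all had a log2 fold change below 0 in Q175 against WT, with none called (edgeR; unadjusted p under 0.05 for *Bcl10* and *Rel*; DESeq2 0). Their median was -0.15, against -0.02 over all genes, and the lowest were *Rel* at -0.42 ± 0.19 and *Bcl10* at -0.37 ± 0.17. Without WT replicates 7 and 8, the samples highest in *Card9* among WT, 6 of the 13 were below 0 and the median was 0.01. In Q175;*Tyrobp*-/- against Q175, 11 of the 13 were above 0 with a median of 0.20 (-0.05 over all genes), again with none called. Over all genes, 8538 of 18266 were above 0 in Q175 against WT and 8113 of 18059 in Q175;*Tyrobp*-/- against Q175. These comparisons share the Q175 samples, and the genes of a library share its scaling, so the 13 are not separate results.

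Disease-associated microglia are defined by a set of genes to which *Clec7a* belongs. The set was chosen with earlier results of these data known, and the genes named here after their values were seen. Its counts and p-values are therefore descriptions. Of 23 other genes of this set, 15 had a log2 fold change below 0 in *Tyrobp*-/- against WT (median -0.27) and 19 in Q175;*Tyrobp*-/- against Q175 (median -0.70). edgeR called *Spp1* alone in the first (-6.58 ± 0.58, adjusted p = 0.00406) and none in the second, where 13 were under an unadjusted p of 0.05 and 7 were called by DESeq2. Over all genes of the second comparison, 8.01% had such a p, DESeq2 called 0.227%, and 9946 of 18059 were below 0; in the first, 8616 of 18017 were. *Cst7*, a protease inhibitor gene, was at 147 to 404 normalised counts in WT and 56.0 to 70.7 in *Tyrobp*-/-, and at 79.3 to 505 in Q175 and 24.6 to 65.6 in Q175;*Tyrobp*-/- samples. Its log2 fold changes were -2.20 ± 0.36 (adjusted p = 0.239) and -2.40 ± 0.48 (adjusted p = 0.368, edgeR). *Lpl*, lipoprotein lipase, was at -3.40 ± 0.64 (adjusted p = 0.565) and -1.91 ± 0.40 (adjusted p = 0.392, edgeR). *Apoe* and *Trem2*, whose product signals through TYROBP, were at -0.18 ± 0.44 and 0.35 ± 0.24 in *Tyrobp*-/- against WT, and neither passed. In Q175;*Tyrobp*-/- against Q175, *Apoe* was at -0.87 ± 0.48 (adjusted p = 0.533, edgeR) and *Trem2* at -0.01. Without the 5 libraries low in microglia markers, 14 and 21 of the 23 were below 0.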

How the data were processed

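RNA of CD11b-bound striatal cells was sequenced from SMART-Seq libraries without strand. The deposited values are counts, which the authors made with STAR and featureCounts and did not normalize. The submitters' notes name GRCh38, the methods GRCm38, and all identifiers are mouse Ensembl genes found in GENCODE M21, which gave symbols, positions and exonic lengths. The table has 2 further columns without a sample, which were not used. Per comparison, genes that reached 1 CPM in any sample were kept, scaled by TMM and tested with edgeR 4.0.16 in R 4.3.3 (quasi-likelihood, Benjamini-Hochberg FDR of 0.1). DESeq2 1.42.0 was an alternative, and both were tested on simulated data. Other alternatives were scaling, filtering, an FDR of 0.05, robust fitting, terms for sex and marker scores, 1 fit over all groups and leaving out single samples. Leaving out WT 7 and 8, or the 5 libraries low in microglia markers, was added after seeing the data. Correlations used log2 CPM (prior count 2). Total counts limit precision, and amplified reads are not independent molecules.

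Members and lists were chosen with earlier results of these data known. Named were the members, *Tyrobp*, called genes of the family and pathway lists, extremes of these lists, the 5 genes most like *Clec7a* and neighbours within 250 kb. *Spp1*, *Cst7*, *Lpl*, *Apoe*, *Trem2*, *Clec10a*, *Mgl2*, *Casp1*, *Cybb*, *Lilrb4a*, *Postn*, *Drg1* and *Ptprc* were named after their values were seen. Whether samples of 1 group came from separate animals is not stated in the labels, so p-values measure the spread between samples. RefSeq promoters matched all 8 members.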

Additional observations from a re-analysis of the deposited data

Results flagged for a closer look

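Q175 replicate 4 had the lowest *Card9* of its group, 305 normalised counts, and stood apart from the other 4, which were at 789 or more. It is also the library with the lowest microglia marker level of the 18. WT replicate 6 had the highest *Clec12a* of its group, 48.7, with the other 4 at 16.2 or less, and the highest neutrophil marker level among the WT samples. These were 2 of 24 groups examined, and chance alone marks about 1 in 20. *Clec12a* was above the WT mean in all 3 *Tyrobp*-/- samples and below the Q175 mean in all 5 Q175;*Tyrobp*-/- samples. The fitted difference between these effects of *Tyrobp* deletion was -1.67 ± 0.67 (log2, SE). edgeR's test of the interaction did not call it at an FDR of 0.1, and no p is given, because both contrasts entered the choice of the genes.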

How the results depend on the processing

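*Clec7a* kept its direction in every alternative run for *Tyrobp*-/- against WT (-2.67 to -2.35, 21 settings) and for Q175;*Tyrobp*-/- against Q175 (-2.41 to -1.75, 22 settings). The first call was lost, leaving 0 members called, with sex (log2 fold change -2.48), the non-microglial score (-2.58) or the other myeloid score (-2.35) as a term, and among single samples left out (-2.59 to -2.37, 0 to 1 members) without *Tyrobp*-/- replicate 15 or 19. In the second, *Clec7a* was called, as 1 member, by DESeq2 (-2.09) and by 1 fit over all 4 groups (-2.10), and single samples left out gave -2.41 to -1.75. In Q175;*Tyrobp*-/- against *Tyrobp*-/-, its value of 0.05 turned to -0.16 with sex, -0.10 with the non-microglial score and -0.51 with the other myeloid score as a term, and to between -0.24 and 0.20 without single samples. In Q175 against WT it moved to -0.80 with sex and -1.83 with the non-microglial score, and to between -0.76 and -0.18 without single samples, the lowest without Q175 replicate 17. The non-microglial score was apart between Q175 and WT. The other myeloid score was apart between *Tyrobp*-/- and each group compared with it. Score and genotype cannot be told apart in those fits. The cause was not tested.

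DESeq2 called 234 genes in Q175 against WT (edgeR 0), 41 in Q175;*Tyrobp*-/- against Q175 (edgeR 2), 168 in *Tyrobp*-/- against WT (edgeR 4), 680 genes with 2 members in Q175;*Tyrobp*-/- against *Tyrobp*-/- (edgeR 0) and 2 for the interaction (edgeR 0). With edgeR, Q175;*Tyrobp*-/- against Q175 gave 9 genes without a filter, 14 in 1 fit over all 4 groups, 1 at an FDR of 0.05 or with sex or either score as a term, and 1 to 5 without single samples. *Tyrobp*-/- against WT gave 15 without a filter, 8 in 1 fit, 2 with either score, 10 without the 5 libraries low in microglia markers and 2 to 8 without single samples. Of the 5 genes most like *Clec7a*, 3 were among the 5 by Spearman's rho. Scaling to total counts moved the median of all genes in Q175;*Tyrobp*-/- against Q175 from -0.05 to 0.08. No paired analysis was possible because the groups share no replicate number. *Clec12a* and *Clec4a1* rest on few counts, which limits what their values can show, and 3 *Tyrobp*-/- samples limit each comparison that uses them.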
